A study of Rattus norvegicus with 6 samples.

Results

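Macrophages and the complement protein C1q were followed in the rat vestibular epithelium through 10 genes chosen by symbol: Cd68, Aif1, Csf1r, Ptprc, C1qa, C1qb, C1qc, Cd74, Tyrobp and Trem2. All 10 symbols had a row of their own among the 32883 genes of the count table, and all 10 entered the test. RNA was sequenced from the vestibular epithelium, the inner ear tissue that holds the hair cells (HCs), of 6 Long-Evans rats. The 3 STREP rats received streptomycin, an aminoglycoside antibiotic toxic to HCs, by daily subcutaneous injection of 500 mg/kg in PBS for 6 weeks starting on postnatal day 21, and the 3 Control rats received PBS. Each group held 2 males and 1 female, and each library pooled the 2 utricles and 6 cristae of a single animal. The tissue was taken whole, so every value covers all cells present, and fewer cells of a type cannot be told apart from less RNA per cell.

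Tissue macrophages are resident phagocytes that clear dying cells and debris, and in the inner ear they lie mainly below the sensory epithelium and around vessels and nerve fibres. Their survival depends on CSF1R, the receptor for the cytokines CSF1 and IL-34. C1q, which starts the classical complement pathway and also tags cells and synapses for removal, is assembled from A, B and C chains encoded by C1qa, C1qb and C1qc, and macrophages and microglia are its main source in many tissues. TREM2 is a lipid-sensing receptor that signals through the adaptor TYROBP (DAP12).

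The C1q genes lie side by side: in the RefSeq annotation of the rat assembly GRCr8, C1qb, C1qc and C1qa are neighbours on chromosome 5 with 0 other genes between them. The promoters of C1qa and C1qb are shown because these were the members whose values did not overlap between the groups. Each runs from 250 bases before to 50 bases after the annotated start, 5′ to 3′ on the minus strand, at chr5:154419884-154420183 for C1qa and chr5:154407778-154408077 for C1qb (GRCr8, whereas the counts were made on Rnor6.0). Capitals mark GAGGAA, a core of the purine-rich box bound by the myeloid factor PU.1, and GGAAGT, a core of ETS family sites, on either strand. The letters GGAA are common to both motifs, so a stretch can match both.
C1qa: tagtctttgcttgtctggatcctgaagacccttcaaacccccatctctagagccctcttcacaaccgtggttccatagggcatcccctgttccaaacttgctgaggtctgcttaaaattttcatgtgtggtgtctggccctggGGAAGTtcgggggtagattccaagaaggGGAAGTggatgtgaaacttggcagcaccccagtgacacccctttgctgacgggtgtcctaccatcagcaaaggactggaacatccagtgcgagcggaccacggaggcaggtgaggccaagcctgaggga
C1qb: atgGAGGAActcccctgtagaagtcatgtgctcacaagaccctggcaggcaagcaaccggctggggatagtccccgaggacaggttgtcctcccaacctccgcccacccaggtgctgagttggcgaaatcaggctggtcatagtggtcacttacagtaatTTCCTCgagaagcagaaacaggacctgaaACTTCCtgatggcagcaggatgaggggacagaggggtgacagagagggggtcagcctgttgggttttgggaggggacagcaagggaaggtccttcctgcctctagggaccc
The C1qa window held GGAAGT at 2 places and GAGGAA at 0, and the C1qb window held GAGGAA at 2 places and GGAAGT at 1. A promoter was given for 7 of the 10 genes, and GAGGAA was in 6 of these and GGAAGT in 4. Over 33469 rat promoters of the same length, 27.6% held GAGGAA and 22.58% held GGAAGT. These matches describe the letters and were not tested for binding.

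Library totals were 48568191 to 59906048 counts in Control and 29333584 to 33744909 in STREP animals, so depth differed between the groups without overlap. The lowest count of any member was 51, for Ptprc in STREP replicate 3, against a detection floor of 3 counts per library. HC genes such as Otof and supporting cell genes such as Otog were abundant in all 6 libraries, with at least 22945 and 334983 normalised counts. Values below are normalised counts, that is counts divided by the DESeq2 size factor of the library, and a gene was called when its adjusted p-value in DESeq2 was under 0.05 and its fold change over 1.5. Under this rule 3.24% of the 16250 genes tested were called, 1.87% higher and 1.37% lower in STREP. P-values measure the spread between these animals.

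None of the 10 macrophage and C1q genes was called: 0 of 10 with DESeq2 and 0 of 10 with the edgeR quasi-likelihood test. An unadjusted p-value under 0.05 was obtained for 2 of the 10, C1qa and C1qb, with DESeq2 and also for 2 with edgeR and a count filter. Over all genes tested with DESeq2, 1984 of 16250 had an unadjusted p-value under 0.05, the share to set beside this and the list counts below. The fitted fold change was above 0 on the log2 scale for 9 of 10 members, and their median log2 fold change was 0.28, beside 0.01 over all genes tested. The Control and STREP values did not overlap for 2 of 10 members, both higher in STREP, where 9.12% of all genes tested were separated in that direction. No member was separated in the lower direction (0 of 10, against 8.63% of all genes). The data do not limit every member to a small change: the upper end of the 95% interval exceeded a 1.5-fold rise for 7 of 10 members, and the lower end passed a fall of the same size for 1, Ptprc.

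**Figure D1:**
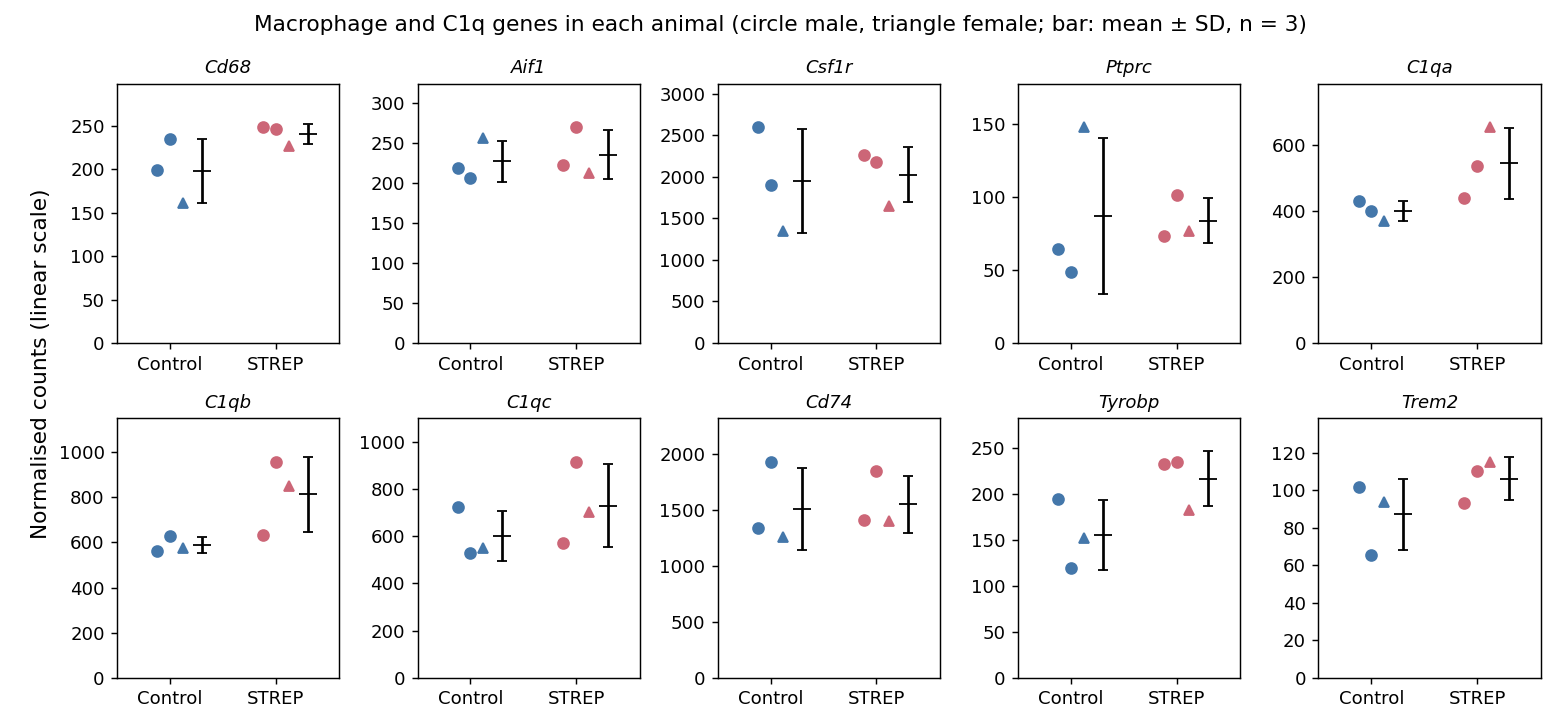
Normalised counts (linear vertical axis from 0, one panel per gene) of the 10 macrophage and C1q genes in 3 Control and 3 STREP animals, with circles for males, triangles for females and a bar for the mean ± SD. The groups are separated in the panels of C1qa and C1qb and overlap in the other panels.

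The C1q genes held the members with the clearest separation. C1qb, the B chain, gave 560.3, 627 and 574 normalised counts in Control replicates 1 to 3 and 632, 959 and 853 in STREP replicates 1 to 3. All STREP values lay above all Control values, but STREP replicate 1 exceeded the highest Control by only a few counts. The log2 fold change was 0.47 ± 0.21 (SE, n = 3 per group), a 1.39-fold difference with a 95% interval of 1.05 to 1.84, and the adjusted p-value of 0.274 in DESeq2 did not pass the threshold. Without STREP replicate 1 the adjusted p-value was 0.0527, the lowest over 14 alternative fits (0.0527 to 0.800), and the log2 fold change was 0.63.

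C1qa, the A chain, gave 430.2, 399 and 369.8 normalised counts in Control and 441, 538 and 655 in STREP animals. The groups were separated, with STREP replicate 1 again next to the Control values. The fold change was 1.36 (95% interval 1.00 to 1.84, log2 0.45 ± 0.22 SE, adjusted p = 0.394 in DESeq2). The separation depended on the scaling: in CPM, counts scaled to the library total,, C1qa was 11.7 in Control replicate 1 and 11.3 in STREP replicate 1, so the groups overlapped and 1 member, C1qb, stayed separated.

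C1qc, the C chain, gave 723, 529.6 and 550.4 normalised counts in Control and 572, 918 and 703 in STREP animals. Control replicate 1 exceeded both STREP replicates 1 and 3, and the groups overlapped. The log2 fold change was 0.28 ± 0.24 (SE), with an adjusted p-value of 0.750 in DESeq2.

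Taking all reads of the C1q genes in a library as the whole, C1qa held 22.3% to 29.6%, C1qb 32.7% to 40.3% and C1qc 31.8% to 42.2%. The highest C1qc share and the lowest C1qb share were both in Control replicate 1. The summed normalised counts were 1713, 1556 and 1494 in Control and 1646, 2414 and 2211 in STREP animals, so STREP replicate 1 lay within the Control range and the others above it.

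The receptor gene Csf1r gave 2600.2, 1898 and 1351 normalised counts in Control and 2261, 2173 and 1644 in STREP animals. The Control values enclosed all STREP values, and the log2 fold change was 0.06 ± 0.24 (SE, 1.04-fold, 95% interval 0.753 to 1.43, adjusted p = 0.980 in DESeq2). The interval kept Csf1r within a 1.5-fold change in either direction. Cd68, a lysosomal glycoprotein of phagocytes, gave 199, 235 and 161 in Control and 249, 246 and 227 in STREP animals, with Control replicate 2 inside the STREP range. Its log2 fold change was 0.28 ± 0.27 (SE, adjusted p = 0.812 in DESeq2).

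Aif1, which encodes the actin-binding protein IBA1 widely used to stain macrophages, gave 219, 206 and 255 normalised counts in Control and 222, 269.9 and 212 in STREP animals. The ranges overlapped almost entirely, with a log2 fold change of 0.05 ± 0.26 (SE, 1.04-fold, 95% interval 0.727 to 1.48, adjusted p = 0.982 in DESeq2). Ptprc, which encodes the pan-leukocyte phosphatase CD45, had the fewest counts and the widest scatter, with 64.4, 48.5 and 148 in Control and 73.2, 101 and 76.3 in STREP animals. The female Control animal held the highest value and the other Control animals the lowest. The log2 fold change was -0.05 ± 0.51 (SE, 95% interval of the fold 0.481 to 1.94, adjusted p = 0.992 in DESeq2). The interval held both falls and rises of over 1.5-fold.

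Cd74, the invariant chain that guides MHC class II molecules to the endosome, gave 1342, 1931 and 1261 normalised counts in Control and 1406, 1843 and 1399 in STREP animals. The highest and the lowest value were both Control, and the log2 fold change was 0.04 ± 0.21 (SE, 95% interval of the fold 0.770 to 1.37, adjusted p = 0.987 in DESeq2). Tyrobp gave 195, 119 and 152 in Control and 233, 235 and 182.5 in STREP animals, and Control replicate 1 exceeded STREP replicate 3. Its log2 fold change of 0.48 ± 0.31 (SE) was the highest of the members, with an interval of the fold from 0.911 to 2.13 and an adjusted p-value of 0.608 in DESeq2. Trem2, whose receptor needs TYROBP, gave 102, 65.5 and 93.7 in Control and 93.2, 110.1 and 115 in STREP animals. The groups overlapped, and the log2 fold change was 0.28 ± 0.38 (SE, adjusted p = 0.894 in DESeq2).

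**Figure D2:**
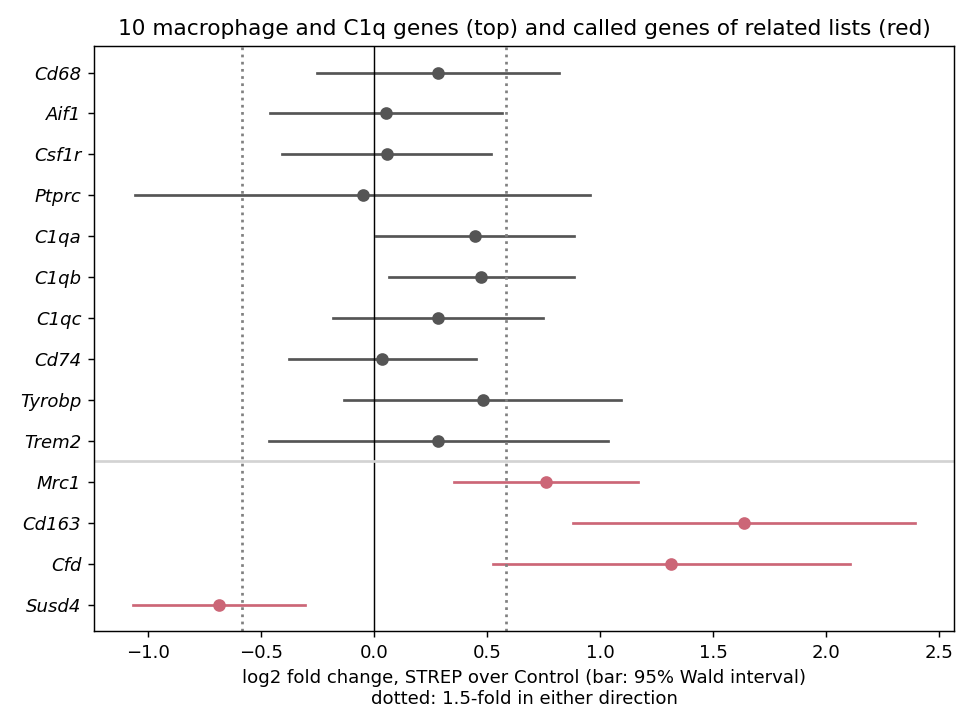
Log2 fold changes of STREP over Control (points) with 95% Wald intervals (bars) for the 10 macrophage and C1q genes and, below the line, the called genes of the related lists in red. Dotted lines mark 1.5-fold in either direction; all member intervals begin below the upper dotted line, and those of C1qa and C1qb begin just above 0.

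Across animals, STREP replicate 2 held the highest value for 4 of 10 members, Control replicate 2 the lowest for 5 and Control replicate 3 the lowest for 4, and no STREP library was lowest for any member. Relative to the Control mean of each gene on the log scale, the geometric mean over the members was 1.07, 0.935 and 1.00 in Control and 1.10, 1.34 and 1.15 in STREP animals. Without STREP replicate 2 the median log2 fold change of the members was 0.17, and without Control replicate 1 it was 0.36. STREP replicate 2 was also the library with the lowest share of counts in its 10 most abundant genes (13.3%, against 14.5% to 21.8% in the others), and its CPM values for the members summed to 215, against 117 to 175 in the others. The part of this share in the members' values was not tested.

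Between males, the log2 ratio of the mean normalised counts of STREP over Control, each plus 1, was above 0 for 8 of 10 members. Between females, with 1 animal per group, it was also above 0 for 8 of 10. Ptprc had the widest gap, with 0.62 in males and -0.95 in females. The interaction of sex and treatment had an adjusted p-value of 0.999 for every member in DESeq2, while 34 of 13134 genes passed 0.05. No sex difference in the response of these genes was detectable with so few females.

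Around these genes, 10 lists of related genes were examined, holding 125 symbols, of which 4 were not listed in the table under that symbol. Of 113 rows tested, 3 were called higher, Mrc1, Cd163 and Cfd, and 1 was called lower, Susd4. The corresponding shares of all genes were 1.87% and 1.37%. The median log2 fold change over the lists was 0.08.

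The list of resident and perivascular macrophage genes held 2 of the called genes among 8 tested. Cd163, which encodes the scavenger receptor for haemoglobin bound to haptoglobin, gave 93.9, 68.0 and 156 normalised counts in Control and 346, 424 and 215 in STREP animals. All STREP values lay above all Control values, and the female of each group stood nearest to the other group. Cd163 rose 3.11-fold (95% interval 1.84 to 5.25, log2 1.64 ± 0.39 SE, adjusted p = 0.00137 in DESeq2). The call was lost without STREP replicate 2 (log2 1.41, adjusted p = 0.0512 in DESeq2) and with edgeR and a count filter (adjusted p = 0.0638), the range over 14 alternative fits being 8.54e-06 to 0.0638.

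Mrc1, which encodes the mannose receptor CD206, gave 467, 419 and 383 normalised counts in Control and 837, 613 and 702 in STREP animals, without overlap. Mrc1 rose 1.69-fold (95% interval 1.28 to 2.24, log2 0.76 ± 0.21 SE, adjusted p = 0.00997 in DESeq2). It was called in 7 of 14 alternative fits. The call was lost with both edgeR fits (adjusted p = 0.0772 and 0.0704), without Control replicate 2 (0.0656), without Control replicate 3 (0.0879), without STREP replicate 1 (0.119), with library totals as size factors (0.197) and in males alone (0.244). Over the 14 fits the log2 fold change was 0.64 to 0.86 and the adjusted p-value 0.00519 to 0.244.

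Of the list, 7 of 8 genes had a fold change above 0 and the median log2 fold change was 0.55, whereas 2 of 8 were separated between groups. The other genes were not called. Among them, picked after their values were seen, Lyve1, a hyaluronan receptor of vessel-associated macrophages and of lymphatic vessels, gave 568 to 726 in Control and 713 to 1089 in STREP animals (log2 0.53 ± 0.22 SE, adjusted p = 0.195 in DESeq2). Folr2, a folate receptor of resident macrophages, gave 46.4 to 103 in Control and 83.8 to 186 in STREP animals (log2 0.82 ± 0.47 SE, adjusted p = 0.504 in DESeq2). The remaining genes of the list overlapped between the groups. For F13a1, Stab1, Maf and Pf4 the log2 fold changes were 0.34, 0.01, -0.05 and 0.57 (adjusted p = 0.906, 0.998, 0.990 and 0.956 in DESeq2).

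**Figure D3:**
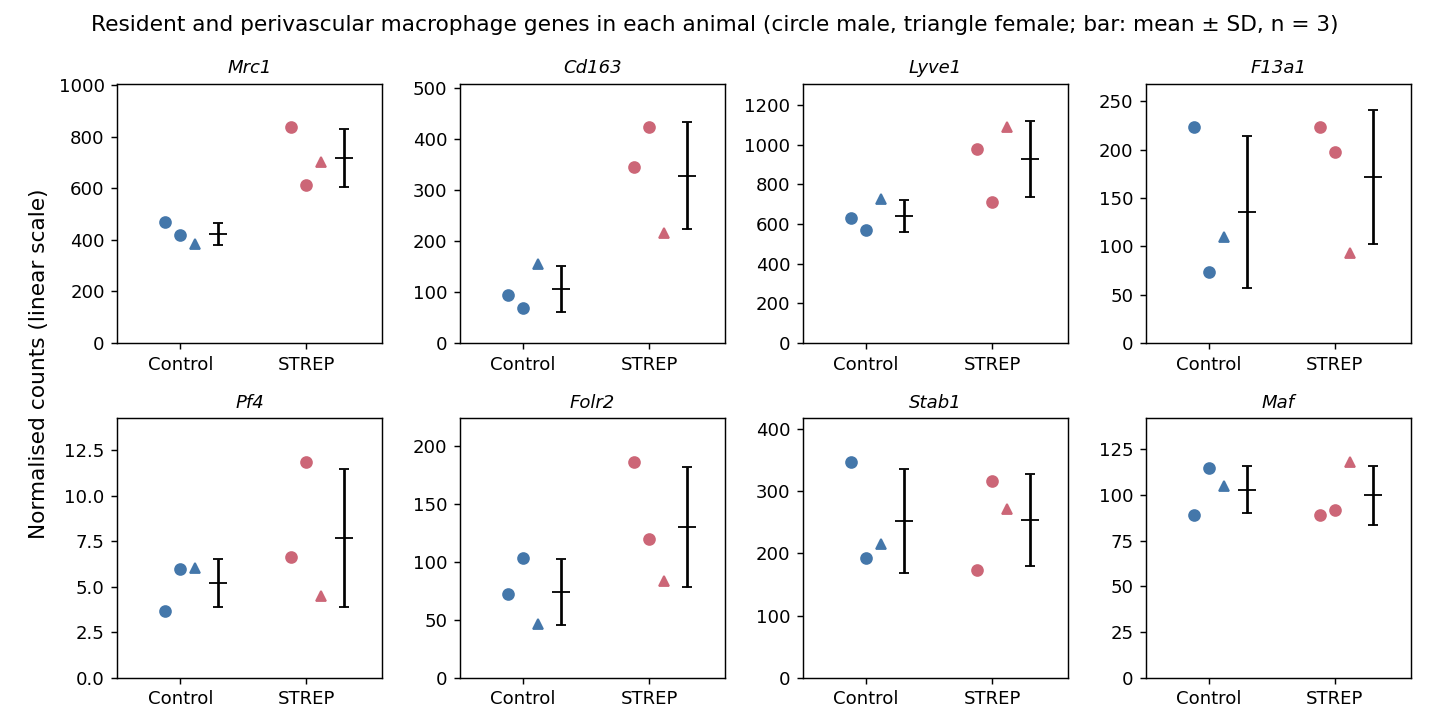
Normalised counts (linear vertical axis from 0, one panel per gene) of the 8 resident and perivascular macrophage genes in 3 Control and 3 STREP animals, with circles for males, triangles for females and a bar for the mean ± SD. Mrc1 and Cd163 are the genes of the list without overlap between the groups; Pf4 stays under 12 normalised counts in all animals.

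Because Mrc1 and Cd163 rose and the general macrophage genes did not pass the test, their reads were also set against those of the members within each library, a choice made after the calls were known, so these ratios are no independent evidence of the rise. Cd163 stood at 3.61, 3.58 and 11.5 reads per 100 Csf1r reads in Control and 15.3, 19.5 and 13.1 in STREP animals, without overlap (exact two-sided permutation p = 0.1, the smallest that 3 against 3 allows, 0.25 after adjustment over 10 ratios). Mrc1 stood at 18.0, 22.1 and 28.3 per 100 Csf1r reads in Control and 37.0, 28.2 and 42.7 in STREP animals, and here Control replicate 3 and STREP replicate 2 overlapped (exact permutation p = 0.2, adjusted 0.286). The overlap depended on the gene in the denominator. Per 100 Aif1 reads both Mrc1 and Cd163 were separated, and per 100 Cd68 reads Mrc1 was separated and Cd163 overlapped. Over the 10 members as denominators, Cd163 was separated with STREP higher for 7 and Mrc1 for 2. The summed C1q reads per 100 Csf1r reads were 65.9, 82.0 and 111 in Control and 72.8, 111 and 134 in STREP animals, with overlap (exact permutation p = 0.4, adjusted 0.444).

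The list of general macrophage and phagocyte genes had 0 of 21 tested genes called with DESeq2 (2 with an unadjusted p-value under 0.05) and 0 with edgeR and a count filter, 11 with a fold change above 0 and 10 below, and a median log2 fold change of 0.02. Its most abundant genes were Lyz2, a lysozyme, with 8263 to 9310 normalised counts in Control and 7778 to 11126.5 in STREP animals, Lcp1, the leukocyte actin bundler L-plastin, with 2394 to 2629 and 1859 to 2554, and Laptm5, a lysosomal protein of blood-derived cells, with 1164 to 1506 and 889 to 1301. All of these overlapped between the groups. Adgre1, which encodes the macrophage surface protein F4/80 and was picked after its values were seen, was the 1 gene of the list separated between groups, with 598, 403 and 359 in Control and 324, 253 and 260.3 in STREP animals (log2 -0.70 ± 0.27 SE, adjusted p = 0.162 in DESeq2).

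Of the microglia list 0 of 7 tested genes were called, and 0 had an unadjusted p-value under 0.05 in DESeq2. Among its abundant genes, the secreted olfactomedin-like gene Olfml3 (463 to 711 normalised counts over the 6 libraries) and the transcription factor gene Sall1 (224 to 467) overlapped between groups. The defining microglia genes P2ry12 and Siglech reached at most 11.0 and 0.614 normalised counts. Of the myeloid transcription factors 0 of 7 were called, and Irf8, Runx1 and Irf5 ran over 184 to 351, 58.3 to 159 and 35.6 to 124 normalised counts in the 6 libraries, Runx1 without overlap and higher in STREP (log2 0.74 ± 0.40 SE, adjusted p = 0.464 in DESeq2). Cebpa, named after its values were seen, was separated in the other direction, with 20.9 to 29.8 normalised counts in Control and 7.48 to 19.4 in STREP animals (log2 -0.79 ± 0.79 SE, adjusted p = 0.820 in DESeq2).

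Of the ligands of CSF1R, Csf1 gave 265, 281 and 267 normalised counts in Control and 405, 442 and 399 in STREP animals, without overlap. Its log2 fold change was 0.62 ± 0.21 (SE), with an adjusted p-value of 0.0746 in DESeq2, and it was not called. Il34, the other ligand, gave 617, 768 and 762 in Control and 612, 577 and 629.8 in STREP animals (log2 -0.24 ± 0.18 SE, adjusted p = 0.713 in DESeq2), with STREP replicate 3 just above Control replicate 1. Csf2rb, the common chain of the GM-CSF, IL-3 and IL-5 receptors, overlapped between groups (430.1 to 709.5 and 301 to 692 normalised counts). Of the genes that act downstream of TREM2 and TYROBP or bind TREM2, 0 of 11 were called and 0 were separated between groups; Apoe, Ptpn6 and Lyn were the most abundant, with log2 fold changes of -0.08, -0.08 and -0.32.

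Among the complement components, 1 of 17 tested was called, Cfd, which encodes factor D, the protease that activates factor B in the alternative pathway. Cfd gave 88.4, 135 and 57.6 normalised counts in Control and 239.7, 297 and 162 in STREP animals, without overlap. It rose 2.49-fold (95% interval 1.44 to 4.30, log2 1.31 ± 0.40 SE, adjusted p = 0.0333 in DESeq2), but was called in only 6 of 14 alternative fits. The call was lost with both edgeR fits and without Control replicate 1 (adjusted p = 0.152), Control replicate 3 (0.187), STREP replicate 1 (0.172) or STREP replicate 2 (0.249), with library totals (0.132) and in males alone (0.128), over a range of 0.00395 to 0.249. A further 4 component rows were separated with STREP higher but not called, for 5 of 17 in all: the more abundant of 2 Cfb rows, C2, C1r and C3, with log2 fold changes of 0.59, 0.27, 0.33 and 1.31 and adjusted p-values of 0.116, 0.314, 0.312 and 0.178 in DESeq2. In this direction 9.12% of all genes tested were separated. C9 was the 1 component separated with STREP lower, with 22.4 to 44.2 normalised counts in Control and 0 to 20.5 in STREP animals (log2 -1.29 ± 1.03 SE, adjusted p = 0.731 in DESeq2). These rows were named after their values were seen. C1r and C1s encode the proteases that C1q carries; C1s gave 241 to 372 in Control and 255 to 359 in STREP animals (log2 0.07 ± 0.28 SE). C8a and C8b, whose products belong to the terminal attack complex, had 0 counts in all libraries.

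Of the complement regulators and receptors 1 of 14 tested was called, Susd4, a membrane protein that inhibits complement activation. Susd4 gave 1337, 1008 and 938 normalised counts in Control and 668, 702 and 670.2 in STREP animals, without overlap. It fell by 0.69 ± 0.19 on the log2 scale (SE, 0.621-fold, 95% interval 0.477 to 0.808, adjusted p = 0.0148 in DESeq2). It was called in 7 of 14 alternative fits, and the call was lost with both edgeR fits (adjusted p = 0.0767 and 0.0672) and without Control replicate 1 (0.112), STREP replicate 1 (0.0892) or STREP replicate 3 (0.0553), with library totals (0.228) and in males alone (0.0543), over a range of 0.00957 to 0.228.

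The engulfment list had 0 of 9 genes called. Gas6, picked after its values were seen, encodes the bridging ligand by which the TAM receptors recognise dying cells. It gave 3020.0, 2436 and 2740.0 normalised counts in Control and 4090.0, 3829.6 and 3979 in STREP animals, without overlap. The log2 fold change was 0.54 ± 0.14 (SE, adjusted p = 0.00515 in DESeq2), under the fold threshold of the call. The most abundant genes of the list, Calr, Lrp1 and Megf10, had log2 fold changes of 0.15, 0.07 and -0.04, and the TAM receptor genes Mertk, Axl and Tyro3 had 0.29, -0.01 and 0.08.

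The MHC class II list holds the class II chain genes, whose products CD74 guides, and other genes of the pathway. It had 0 of 14 tested genes called and 3 with an unadjusted p-value under 0.05 in DESeq2. Lgmn, Ifi30 and Rfxank, its most abundant genes, had log2 fold changes of -0.25, 0.11 and -0.28. STREP replicate 2 held the highest values of the class II chain genes RT1-Da (398, against 90.5 to 221 in the others) and RT1-Db1 (414, against 73.2 to 173), which were picked after their values were seen. Class II chain genes have similar copies, and how their reads were divided was not tested.

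**Figure D4:**
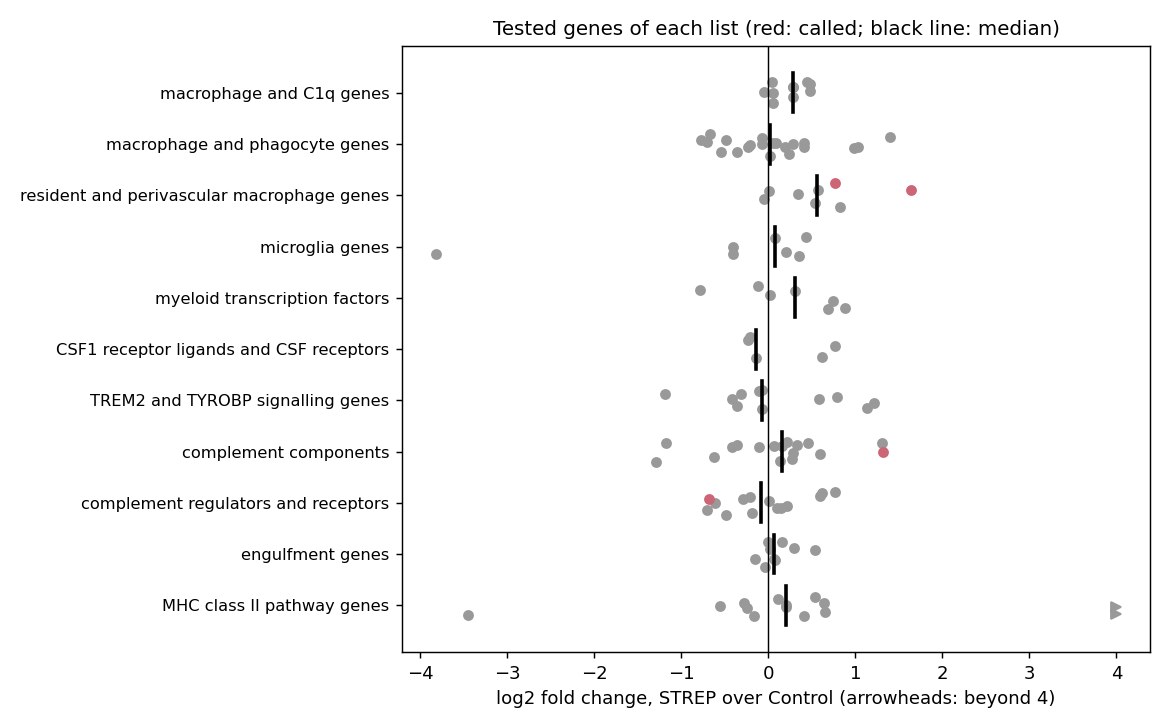
Log2 fold changes of STREP over Control (horizontal axis) for each tested gene of the 10 macrophage and C1q genes and of the 10 related lists, with called genes in red and a black line at the median of each list. The medians run from -0.14 for CSF1 receptor ligands and CSF receptors to 0.55 for resident and perivascular macrophage genes, and arrowheads stand for the MHC class II pathway genes Ciita and Rfxap, beyond the axis.

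Markers of other cells were set beside these values. Of 15 lymphocyte markers 6 had enough counts to be tested and 0 were called. An unadjusted p-value under 0.05 was obtained for 3 in DESeq2, Cd4 above 0 and Cd3e and Cd79b below. The CD3 chain genes Cd3d and Cd3e of T cells reached at most 5.95 and 11.2 normalised counts and the B cell gene Ms4a1 at most 7.65. Cd3e had 0 counts in all STREP animals and 4.30 to 11.2 normalised counts in Control (adjusted p = 0.365 in DESeq2). Cd4, Lck and Cd3g were at 221 to 409, 79.3 to 309 and 75.7 to 196 (rat macrophages also express CD4). Of the granulocyte and mast cell markers 0 were called and Mpo, Elane, Cpa3 and Ms4a2 had 0 counts. Red blood cell markers were below 0 on the log2 scale for 5 of 5 rows, none called, with summed normalised counts of 5769.8 to 19896 in Control and 8216 to 11060.2 in STREP animals. Schwann cell markers were below 0 for 6 of 6 genes, and 1 was called, the myelin gene Prx (log2 -0.68 ± 0.21 SE, adjusted p = 0.0425 in DESeq2). Of the 6 Schwann cell markers, 3 had an unadjusted p-value under 0.05 in DESeq2 and 2 were separated with STREP lower. The Prx call was made in 5 of 14 alternative fits, with adjusted p-values of 1.74e-06 to 0.262, and was lost with both edgeR fits and without any 1 animal other than STREP replicate 1. Endothelial and fibroblast markers had 0 of 6 and 0 of 6 called, melanocyte markers 0 of 4 and supporting cell markers 0 of 8. Of these lists 2, 5, 3 and 3 genes were below 0. An unadjusted p-value under 0.05 in DESeq2 was obtained for 0 endothelial, 1 fibroblast, 2 melanocyte and 1 supporting cell markers. Mlana, named after its values were seen, was separated with STREP lower (log2 -0.96 ± 0.37 SE, adjusted p = 0.168 in DESeq2), and 2 supporting cell markers were separated with STREP higher. Of 7 HC markers 6 were below 0, and Gfi1 was the 1 above 0 and the 1 called (log2 1.20 ± 0.21 SE). Myo7a and Tmc1, named after their values were seen, were separated with STREP lower (log2 -0.49 ± 0.14 and -0.40 ± 0.17 SE, adjusted p = 0.0162 and 0.256 in DESeq2), and neither passed both limits of the call. The part of these shifts in the values of the macrophage and C1q genes was not tested.

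In these libraries the members followed their mean profile to differing degrees. Over the 6 libraries, after the group means were removed, the Pearson correlation of each member with the mean profile of all 10 on the log2(normalised count + 1) scale ran from 0.02 for Cd68 to 0.99 for C1qc. The profile included the member itself, and how far that raised each correlation was not tested. The 10 other genes most like this profile were Crmp1, Trip10, Rpap3, Pemt, Mrps31, Ywhah, Slu7, LOC100911130, Timm17b and Fam192a (r from 0.991 to 0.999, of 13097 genes compared), none of them from the 10 related lists. LOC100911130 and Timm17b had identical values. On the log2 CPM scale 0 of these 10 stayed among the first 10, so the likeness depended on the scaling. With 6 libraries, in which depth differed between the groups, it describes these libraries alone.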

How the data were processed

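RNA-seq of 6 libraries, 1 per animal, was used. RNA was reverse transcribed and the cDNA amplified by the SMART-seq2 protocol. Reads were aligned to Rnor6.0 with STAR 2.5.3a and quantified with RSEM 1.3.0, the versions being those of the submitters' processing notes. The authors deposited expected counts per gene without scaling between libraries, and 0 values were not whole. Groups and sex came from the labels, which put all libraries in a single batch and give no replicate numbers, so replicates were numbered in order of deposition.

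Counts of all 32883 genes were fitted with DESeq2 1.42.0 in R 4.3.3 (median-of-ratios size factors, group as factor, Wald test, independent filtering at 0.05, Benjamini-Hochberg adjustment). The alternative test was edgeR 4.0.16. Both were tested on simulated data, in which DESeq2 recovered more of the changed genes than edgeR and also called more unchanged genes. The detection floor of 3 counts was 0.0501 to 0.102 CPM and, like all intervals, covers no amplification error, since reads carried no molecular identifiers. The members and lists were chosen with earlier results of these data known. Genes named were the members, every called gene of a list or otherwise its 3 most abundant, the 10 most alike, and others stated as picked afterwards. Some list genes are not reported here. Promoters were RefSeq sequences of GRCr8.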

Additional observations from a re-analysis of the deposited data

How the results depend on the processing

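No member was called in any of 14 alternative fits, and their median log2 fold change stayed above 0 in each, at 0.17 to 0.36. No paired analysis was made, because the labels do not pair Control with STREP animals. The sample titles of STREP replicates 1 and 2 share a number, whereas each other title has its own. The titles do not say what the number stands for, and its effect was not tested. Called genes fell from 527 to 264 (edgeR with a count filter), 295 (edgeR without it) and 309 (library totals as size factors). Genes of the related lists called higher, 3 in the fit reported, were 0 with edgeR and a count filter (10 of 105 with an unadjusted p-value under 0.05) and 1 with library totals, and 1 to 5 when each animal was left out. Those called lower, 1 in the fit reported, were 0 with either edgeR fit, library totals or males alone, and 0 to 1 when each animal was left out. The most, 5, came without Control replicate 1 (C3, Cd163, Gas6, Mrc1 and Ncf1). Separated members fell from 2 to 1 on the CPM scale, an alternative chosen after seeing the data.

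Members near 0 changed sign: Ptprc was at 0.11 with sex as a covariate and 0.63 in males alone, and Csf1r and Cd74 at -0.023 and -0.011 in males alone. Leaving out each animal gave -0.062 to 0.15 for Aif1, -0.15 to 0.31 for Csf1r, -0.34 to 0.57 for Ptprc and -0.11 to 0.25 for Cd74. Gfi1 was called in 14 of 14 fits, Cd163 in 12 and Prx in 5. The cause of these differences was not tested. No scaling moved the median of all genes by over 0.1.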

Other observations

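Some genes of the related lists were read in part of the libraries only, and were picked after their values were seen. Rfxap, a subunit of the RFX complex that switches on MHC class II genes, had 0 counts in all Control animals and in STREP replicate 3, but 419 and 169.5 normalised counts in STREP replicates 1 and 2. It was not called in the fit reported (adjusted p = 0.138 in DESeq2), but was called as higher with edgeR without a count filter and, in DESeq2, in males alone, without STREP replicate 2 and without STREP replicate 3. RT1-DMb, a chain of the peptide loader of class II molecules, stood at 0.860 normalised counts in Control replicate 3 and at 158 to 329 in the other animals. Cd86, a costimulatory receptor ligand of antigen-presenting cells, gave 8.59 to 67.2 normalised counts in Control and 0 to 7.99 in STREP animals (log2 -3.45 ± 1.25 SE, adjusted p = 0.116 in DESeq2), and passed as lower without STREP replicate 1.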
